A study of Mus musculus with 6 samples.

Results

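The insulin-like growth factor (IGF) gene set described here holds 10 genes measured in the mouse medial ganglionic eminence (MGE), namely the ligand gene Igf1, the receptor genes Igf1r and Insr, the adaptor genes Irs1 and Irs2, and the binding protein genes Igfbp2, Igfbp3, Igfbp4, Igfbp5 and Igfbpl1. They are 10 of the 49315 genes in the count table and of the 18079 that passed the filter on low counts, and all 10 passed it. The genes were chosen by family membership, with the WT and KO values of these same libraries already known. Their differences between the groups are therefore given as a description, with fold changes and errors but without p-values, and they support nothing beyond themselves.

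The MGE is the zone of the embryonic ventral forebrain that produces many cortical interneurons. Total RNA came from MGE tissue dissected at embryonic day 14, and each library was 1 pool of 3 embryos (6 eminences). The WT group (n = 3) had the genotype Nkx2.1-Cre; Prdm16+/+; Ai14, and the KO group (n = 3) had Nkx2.1-Cre; Prdm16fl/fl; Ai14. Both groups thus carried the Cre driver and the Ai14 reporter and differed in the floxed allele of Prdm16, a zinc finger transcription factor gene of neural progenitors. The Nkx2.1 promoter limits Cre to cells of that lineage, so vessels and microglia in the same dissections are not its targets. Whether Cre also acted in neighbouring territories was not tested. Values are CPM (a gene's reads relative to the TMM-scaled total of its library) with their SD over the 3 libraries of a group, unless a sentence names another scale.

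IGF1 and IGF2 are secreted growth factors that act on the IGF1 receptor, a tyrosine kinase closely related to the insulin receptor, and both receptors signal through the docking proteins IRS1 and IRS2 to PI3 kinase and Akt. The IGF binding proteins are secreted carriers that hold IGF away from its receptors or release it near cells, and proteases cut some of them. In the embryonic brain this pathway is known for its effects on progenitor division, survival and growth.

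Total counts ran from 33188277 to 55552298 per library. Prdm16 itself was at 45.4 to 55.8 CPM in WT and 45.8 to 53.6 CPM in KO (log2 fold change 0.02, SE 0.09), so the direction of each difference rests on the group labels. The MGE markers were present, with Lhx6 at 621 to 683 CPM and Nkx2-1 at 615 to 674 CPM in WT. In KO Lhx6 was lower, at 472 to 521 CPM (edgeR adjusted p = 0.00627). Nkx2-1 was at 637 to 861 CPM in KO and did not pass (edgeR adjusted p = 0.112). The KO pools differed in their sex-linked genes. KO 1 had Xist at 1.92 CPM and 4 Y-linked genes summing to 239 CPM. KO 3 lay at the opposite extreme, with Xist at 1424 CPM and a Y-linked sum of 0.362 CPM. Both kinds were detected in the other 4 pools. KO 1 was also the KO library closest to the WT mean in 7 of the 10 genes. For the 10 genes, calls that change without KO 1 are given both ways.

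Of the 10 genes, 2 rose in KO (Igfbp5 and Igfbp2) and 4 fell (Igf1, Insr, Igfbp4 and Igf1r) at an adjusted p under 0.05 in the fit over all genes, while Irs1, Irs2, Igfbp3 and Igfbpl1 did not pass. The size of these differences was uneven. Igfbp5 rose 3.47-fold and Igf1 was 2.91-fold lower, whereas Insr, Igfbp2, Igfbp4 and Igf1r differed by between 1.12-fold and 1.40-fold. Among all 18079 tested genes 20.2% passed, 9.72% as higher and 10.5% as lower. In 8 of the 10 genes the KO libraries lay wholly above or below the WT libraries, as they did in 39.9% of all tested genes. Since these genes were picked with this contrast known, nothing is read from either count. Their median log2 fold change was -0.19, and that of all tested genes was -0.00.

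**Figure D1:**
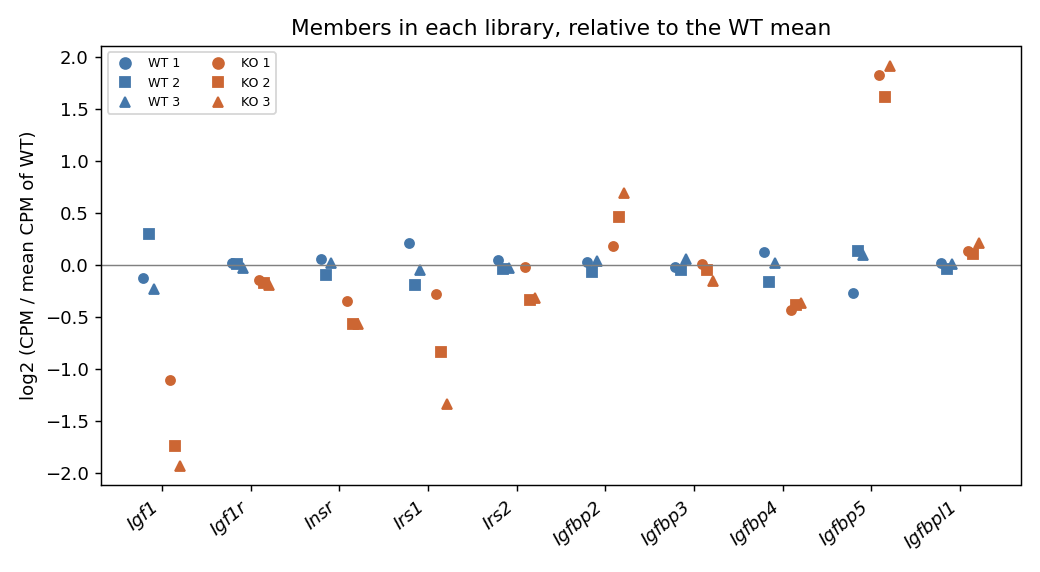
Level of each of the 10 genes in each library, as log2 of its CPM over the WT mean (y axis); blue marks WT and orange KO, and the marker shape gives the replicate. The 3 KO points of Igfbp5 lie above all WT points and those of Igf1 below them, and KO 1 (circle) is the KO library closest to the WT mean in 7 of the 10 genes.

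Igfbp5 (ENSMUSG00000026185, GRCm38 chromosome 1, 72857932 to 72874884, minus strand) encodes a binding protein that also attaches to extracellular matrix. It was at 60.8, 80.3 and 78.0 CPM in WT 1 to 3 and at 259, 224 and 276 CPM in KO 1 to 3. The lowest KO library was well above the highest WT library, and the KO pools were all raised by a similar amount. The log2 fold change was 1.79 (SE 0.11), and its 95% interval as a fold was 2.91 to 4.14.

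Igfbp2 (ENSMUSG00000039323, chromosome 1, 72824503 to 72852474, plus strand) encodes a binding protein that is abundant in the developing brain. It was at 64.1, 60.0 and 64.6 CPM in WT 1 to 3 and at 71.5, 86.5 and 102 CPM in KO 1 to 3. The groups did not overlap, but KO 1 was only slightly above the WT libraries and the KO pools were spread more widely than the WT pools. The log2 fold change was 0.46 (SE 0.11). Without WT 1, WT 2, WT 3 or KO 2 the gene no longer passed, at log2 fold changes of 0.43 to 0.48, and without KO 1 it passed at 0.59.

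Igfbp2 and Igfbp5 lie next to each other in opposite orientation, with their 3′ ends 5457 bases apart. Within 250 kb on either side of the pair, the table holds 4 other protein-coding genes. Of these Rpl37a, a ribosomal protein gene, rose from 240 ± 13.4 to 290 ± 28.5 CPM (log2 fold change 0.27, edgeR adjusted p = 0.0386). The chromatin remodeller gene Smarcal1 was at 59.4 ± 1.37 CPM in WT and 53.2 ± 4.80 CPM in KO and did not pass (edgeR adjusted p = 0.13). The other 2, Ankar and Tnp1, were too low to be tested. This window was chosen after the values of the pair had been seen.

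The sequences before the start sites of Igfbp5, Igfbp2 and Igfbp4 are shown because these are the binding protein genes that passed, the first pair upward and the last downward. Each is the 250 bases upstream of a RefSeq start (GRCm38.p6), written in the direction of transcription, and capitals mark matches on either strand to the TATA box letters TATAAA or the GC box letters GGGCGG. They lie at chr1:72874866-72875115 (minus), chr1:72824230-72824479 (plus) and chr11:99040994-99041243 (plus).
Igfbp5: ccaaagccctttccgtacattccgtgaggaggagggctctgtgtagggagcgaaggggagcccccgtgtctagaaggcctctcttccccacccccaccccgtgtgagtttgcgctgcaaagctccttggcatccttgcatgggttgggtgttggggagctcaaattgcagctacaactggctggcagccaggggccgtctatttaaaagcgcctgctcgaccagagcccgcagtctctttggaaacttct
Igfbp2: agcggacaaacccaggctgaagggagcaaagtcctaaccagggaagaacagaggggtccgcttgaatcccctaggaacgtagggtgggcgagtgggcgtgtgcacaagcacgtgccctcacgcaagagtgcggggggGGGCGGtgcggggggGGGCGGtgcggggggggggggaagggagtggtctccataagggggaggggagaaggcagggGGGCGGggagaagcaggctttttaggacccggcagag
Igfbp4: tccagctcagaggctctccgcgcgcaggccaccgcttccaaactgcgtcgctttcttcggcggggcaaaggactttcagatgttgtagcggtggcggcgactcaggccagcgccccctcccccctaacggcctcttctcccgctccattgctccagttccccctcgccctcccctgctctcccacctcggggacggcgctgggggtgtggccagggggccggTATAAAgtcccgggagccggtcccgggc

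RefSeq promoters matched 8 of the 10 genes in 9 windows, with 2 start sites for Igfbp2, and Insr and Igfbpl1 were not matched. The window of Igfbp4 holds 1 TATAAA match, beginning 28 bases before the start, and 12.4% of all 32851 windows of this length hold one. The Igfbp2 window shown holds 3 matches to GGGCGG, which occurs in 32.7% of all windows, and the Igfbp5 window holds neither set of letters. The window of the other Igfbp2 start holds 0 matches to GGGCGG. The forkhead core GTAAACA was in 0 of the 9 windows and in 3.17% of all windows. An E-box, written CANNTG, was in 8 of the 9 and in 66.2% of all. GC content was 58.8% for Igfbp5, 67.2% for the Igfbp2 window shown, 56.4% for the other Igfbp2 window and 69.2% for Igfbp4. The median over all windows was 52.4%. These matches describe letters only and show no binding.

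Igfbp4 (ENSMUSG00000017493, chromosome 11, 99041244 to 99054392) encodes a carrier that restrains IGF until it is cut by the protease PAPP-A. It was at 126, 103 and 117 CPM in WT 1 to 3 and at 85.7, 88.7 and 90.1 CPM in KO 1 to 3. All KO pools were below all WT pools, and here KO 1 was the lowest of the KO pools. The gene was 1.31-fold lower (log2 fold change -0.39, SE 0.07).

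Igfbp3 (ENSMUSG00000020427, chromosome 11, 7206086 to 7213923), the main IGF carrier of blood, was at 5.33, 5.23 and 5.63 CPM in WT 1 to 3 and at 5.44, 5.22 and 4.86 CPM in KO 1 to 3. The groups overlapped. The 95% interval of its KO to WT ratio was 0.809 to 1.13.

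Igfbpl1 (ENSMUSG00000035551, chromosome 4, 45809468 to 45826923) encodes a protein that resembles the IGF binding proteins and is known from developing forebrain. It was at 258, 247 and 254 CPM in WT 1 to 3 and at 278, 272 and 294 CPM in KO 1 to 3. The KO libraries were all above the WT libraries by a small margin. The ratio was 1.11 (log2 fold change 0.15, SE 0.06) and the gene did not pass, although without KO 1 it did, at a log2 fold change of 0.17.

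Igf1 (ENSMUSG00000020053, chromosome 10, 87858265 to 87937042), the growth factor gene itself, was scarce. The WT pools 1 to 3 gave 70, 68 and 54 reads (1.52, 2.03 and 1.41 CPM), while the KO pools 1 to 3 gave 34, 18 and 24 reads (0.767, 0.494 and 0.435 CPM). The KO pools were all below the WT pools, with KO 1 nearest to them. The log2 fold change was -1.54 (SE 0.26), and it ran from -1.82 without KO 1 to -1.35 without KO 3.

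Insr (ENSMUSG00000005534, chromosome 8, 3122061 to 3279617), which encodes the insulin receptor, was at 121, 109 and 118 CPM in WT 1 to 3 and at 91.7, 78.5 and 78.7 CPM in KO 1 to 3. The groups did not overlap, and KO 2 and KO 3 were nearly equal. The gene was 1.40-fold lower (log2 fold change -0.49, SE 0.07).

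Igf1r (ENSMUSG00000005533, chromosome 7, 67952827 to 68233668), which encodes the IGF1 receptor, was at 210, 208 and 202 CPM in WT 1 to 3 and at 187, 184 and 181 CPM in KO 1 to 3. The difference was small but the libraries of each group lay close together, so the groups did not overlap. The gene was 1.12-fold lower (log2 fold change -0.17, SE 0.05). It no longer passed without WT 1, WT 2, WT 3, KO 2 or KO 3, nor with the replicate number as a block, nor with no filter on low counts beyond a count above 0, and its log2 fold change stayed between -0.18 and -0.15 over all alternatives.

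Because Insr was lower by more than Igf1r, the balance of the receptor transcripts differed between the groups. Per kilobase of exon, the ratio of Igf1r to Insr within a library had the values 1.42, 1.56 and 1.40 across WT 1 to 3, against 1.67, 1.92 and 1.88 across KO 1 to 3. Every KO library had a higher ratio than every WT library.

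Irs1 (ENSMUSG00000055980, chromosome 1, 82233101 to 82291416), a docking protein gene, was at 27.9, 21.1 and 23.4 CPM in WT 1 to 3 and at 19.9, 13.5 and 9.59 CPM in KO 1 to 3. The KO libraries were all lower, yet they differed among themselves by about as much as the groups did, and the gene did not pass (log2 fold change -0.76, SE 0.25). Without KO 1 it passed, at a log2 fold change of -1.07. It also passed with the block, with limma voom, without the robust option and with the stricter filter. On the opposite strand the gene model Gm9747 shares 2822 exonic bases with Irs1, and it had 0 counts in each library. With an unknown strand setting, how reads in that stretch were assigned is not known, so the level of Irs1 is uncertain.

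Irs2 (ENSMUSG00000038894, chromosome 8, 10984681 to 11008458), the other docking protein gene, was at 75.6, 71.2 and 71.6 CPM in WT 1 to 3 and at 71.9, 57.9 and 58.4 CPM in KO 1 to 3. KO 1 fell within the WT range, while KO 2 and KO 3 were below it. The log2 fold change was -0.21 (SE 0.08), which did not pass, and it was -0.32 without KO 1, where it passed. Its antisense partner 9530052E02Rik shares 162 exonic bases with it and had 6 to 20 counts per library.

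Levels can be compared between genes only per length of exon. On the scale of CPM per kilobase, Igfbpl1 was the highest of the 10 in WT (77.9 ± 1.60), followed by Igfbp2 (34.0 ± 1.36) and Igfbp4 (26.2 ± 2.62). Igf1r (12.3 ± 0.236), Igfbp5 (12.2 ± 1.77) and Irs2 (11.5 ± 0.381) came next. The WT range of Igfbp5 overlapped those of both Igf1r and Irs2, while the ranges of Igf1r and Irs2 were apart. Insr (8.46 ± 0.467), Irs1 (2.63 ± 0.378), Igfbp3 (1.72 ± 0.0671) and Igf1 (0.167 ± 0.0336) followed with separate ranges. In KO, Igfbp5 came next after Igfbp2, at 42.1 ± 4.39 against Igfbp2 at 46.9 ± 8.20, and the order of Irs1 (1.57 ± 0.570) and Igfbp3 (1.65 ± 0.0937) was exchanged within their spread. Measured by the longest transcript in place of all merged exons, 7 of the 10 genes kept their WT place.

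**Figure D2:**
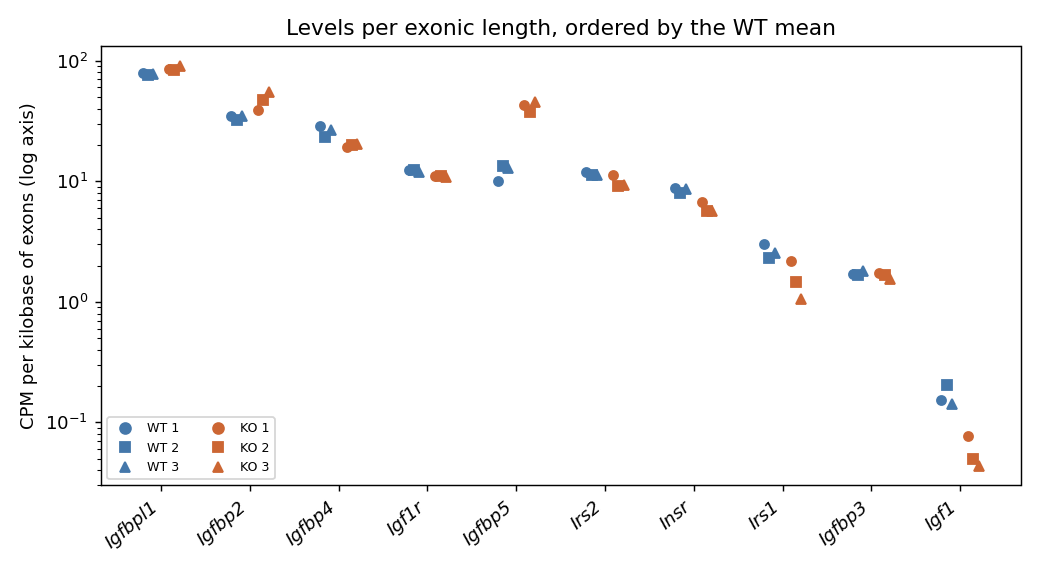
CPM per kilobase of merged exons (log axis) for each gene and library, ordered by the WT mean; blue is WT, orange is KO and the shape gives the replicate. Igfbpl1 is the highest at 77.9 in WT, Igf1 the lowest at 0.167, and Igfbp5 moves from 12.2 in WT to 42.1 in KO.

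The 5 binding protein genes together summed to 152 ± 4.31 CPM per kilobase in WT and 197 ± 14.1 in KO. The share of Igfbp5 in that sum was 6.56%, 9.09% and 8.40% for WT 1 to 3, against 22.9%, 19.7% and 21.5% for KO 1 to 3. Every KO share of Igfbp5 was above every WT share. Igfbpl1 went the other way in share, with 51.2 ± 0.583% in WT and 44.0 ± 1.47% in KO, although its own level was not lower in KO. Igfbp2 kept a similar share, 22.4 ± 0.272% in WT and 23.7 ± 2.78% in KO, and Igfbp4 had 17.2 ± 1.31% in WT and 10.1 ± 0.531% in KO. The ratio of Igfbp5 to Igfbp2 within a library was 0.358 ± 0.0609 in WT and 0.915 ± 0.175 in KO.

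**Figure D3:**
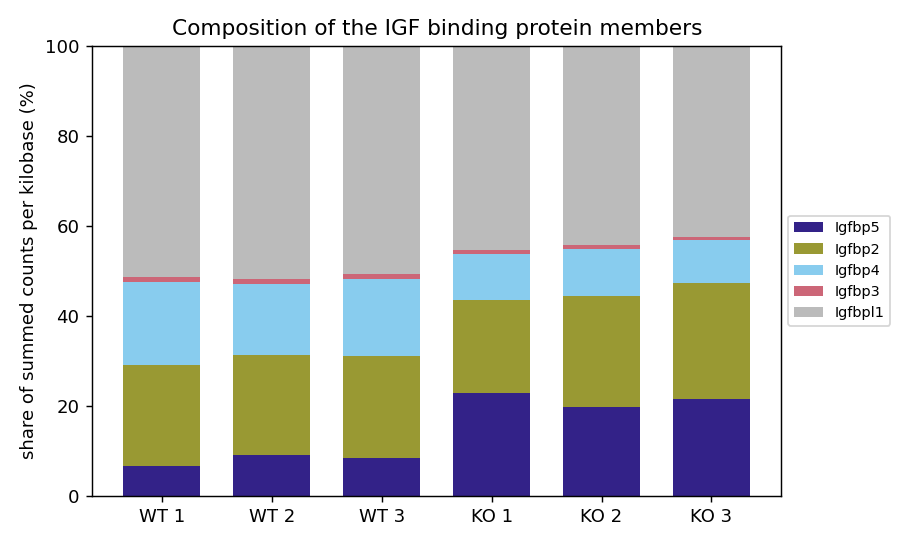
Share of each binding protein gene in the summed counts per kilobase of the 5 genes (y axis, percent), 1 stacked bar per library. The lowest band, Igfbp5, takes 6.56% to 9.09% in the WT libraries and 19.7% to 22.9% in the KO libraries.

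For the 3 genes whose fitted change was at least 1.5-fold, the genes with the most similar pattern were found among 9423 protein-coding candidates, by the root mean square difference of mean-centred log2 CPM over the 6 libraries. Igfbp5 was closest to Lhx9, a LIM homeobox gene (0.11), followed by Robo3, a guidance receptor gene (0.26), and Fgf15, a growth factor gene (0.28). Lhx9 was at 5.92 CPM in WT and 18.8 CPM in KO on average. Igf1 was closest to the semaphorin receptor gene Plxna4 (0.19), the glutamate receptor gene Grm5 (0.20) and Cobl (0.21). Irs1 was closest to Syt6 (0.13), Tspan9 (0.13) and Flrt2 (0.13), with Syt6 at 36.4 CPM in WT and 19.6 CPM in KO. The 6 libraries fall into 2 groups, so this measure includes the difference between the groups.

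A list of 53 other genes of the pathway was measured beside these 10. Of the 47 tested, 6 rose, 13 fell and 28 did not pass, with a median log2 fold change of -0.14 against -0.00 for all genes, of which 9.72% passed as higher and 10.5% as lower. Some of their values were known from an earlier account of these data when the list was written. The count was sensitive to the libraries: without KO 1 there were 6 higher and 22 lower, and without any other library in turn 3 to 4 higher and 3 to 6 lower. Over all tested genes the calls without KO 1 also went up, from 1758 to 3752 higher and from 1897 to 3804 lower.

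Igf2 (ENSMUSG00000048583), the imprinted fetal growth factor gene, fell from 41.8, 46.3 and 43.1 CPM in WT 1 to 3 to 28.2, 17.9 and 18.5 CPM in KO 1 to 3. The groups did not overlap, and KO 1 was nearest to WT. Igf2 was 2.03-fold lower (log2 scale -1.02, SE 0.16; edgeR adjusted p = 0.00478) and passed in each alternative. Per kilobase, Igf2 exceeded Igf1 by a factor of 46.6 ± 6.80 in WT and 66.7 ± 6.17 in KO, so Igf2 was the more abundant ligand transcript in both groups. The insulin gene Ins1 had 0 counts in each library, which allows at most 0.0544 to 0.0896 CPM, and Ins2 had 1 count in WT 3 alone. Igf2r, which encodes the receptor that clears IGF2, was at 96.7 ± 2.07 CPM in WT and 97.7 ± 17.3 CPM in KO and did not pass (edgeR adjusted p = 0.934). Without KO 1 its log2 fold change turned to -0.14 (edgeR adjusted p = 0.0289).

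The other binding protein genes were low or did not pass. Igfbp7, a gene of vessels that encodes a related secreted protein, was at 19.5 ± 2.11 CPM in WT and 20.8 ± 1.90 CPM in KO (edgeR adjusted p = 0.561). Igfbp1, Igfbp6 and Igfals, which encodes a partner of the carriers in blood, had at most 10 counts in any library and were not tested. Of the genes for proteases that cut binding proteins, Pappa rose from 11.8 ± 2.00 to 19.4 ± 2.08 CPM (log2 fold change 0.71, edgeR adjusted p = 0.00732) and Htra1 fell from 8.74 ± 0.499 to 0.963 ± 0.275 CPM (log2 fold change -3.16, edgeR adjusted p = 1.64e-05). Pappa and Htra1 passed in every alternative. The protease gene Pappa2, the protease inhibitor genes Stc1 and Stc2, and Ide, a gene of insulin degradation, did not pass in the main comparison.

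All 3 genes for IGF2 mRNA-binding proteins, which bind and regulate transcripts such as that of Igf2, rose. Igf2bp2 went from 59.4 ± 2.99 to 99.3 ± 8.86 CPM (log2 fold change 0.74, edgeR adjusted p = 0.000349), Igf2bp1 from 87.4 ± 5.80 to 129.9 ± 9.79 CPM (0.57, edgeR adjusted p = 0.00114) and Igf2bp3 from 54.8 ± 3.58 to 66.4 ± 3.74 CPM (0.28, edgeR adjusted p = 0.0217). Igf2bp3 no longer passed without WT 2, WT 3 or KO 2.

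Downstream of the receptors the differences were small. Among 8 tested adaptor genes Irs4 rose 1.42-fold (edgeR adjusted p = 0.0389; without KO 1 its log2 fold change was 0.52 and edgeR adjusted p = 0.0676, which did not pass), Gab1 was 1.29-fold lower (edgeR adjusted p = 0.0153) and 6 did not pass. Of 11 genes of PI3 kinase and Akt 4 fell and 7 did not pass. The catalytic subunit gene Pik3ca was 1.18-fold lower, the regulatory subunit gene Pik3r2 1.16-fold and the kinase gene Akt2 1.16-fold (edgeR adjusted p from 0.0193 to 0.023). In the mTOR arm Rheb, the activator of mTOR complex 1, rose 1.17-fold, its inhibitors Tsc1 and Tsc2 were 1.20-fold and 1.17-fold lower, Rictor was 1.15-fold lower and 5 of 9 genes did not pass. Of 6 genes in the FoxO arm, 3 fell, led by the transcription factor gene Foxo3, which went from 48.4 ± 0.581 to 31.5 ± 4.09 CPM (1.53-fold lower, edgeR adjusted p = 0.00213). Foxo1 was 1.26-fold lower and Foxo4 1.17-fold lower. Foxo3 passed in each alternative. With 1 library left out in turn, Irs4, Pik3ca, Akt2, Rictor, Tsc1, Tsc2, Rheb and Foxo4 passed in 1 of the 6 fits, Gab1 and Pik3r2 in 2 and Foxo1 in 3. Irs4 passed only without KO 2, and the other 7 genes that passed in 1 fit did so without KO 1.

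**Figure D4:**
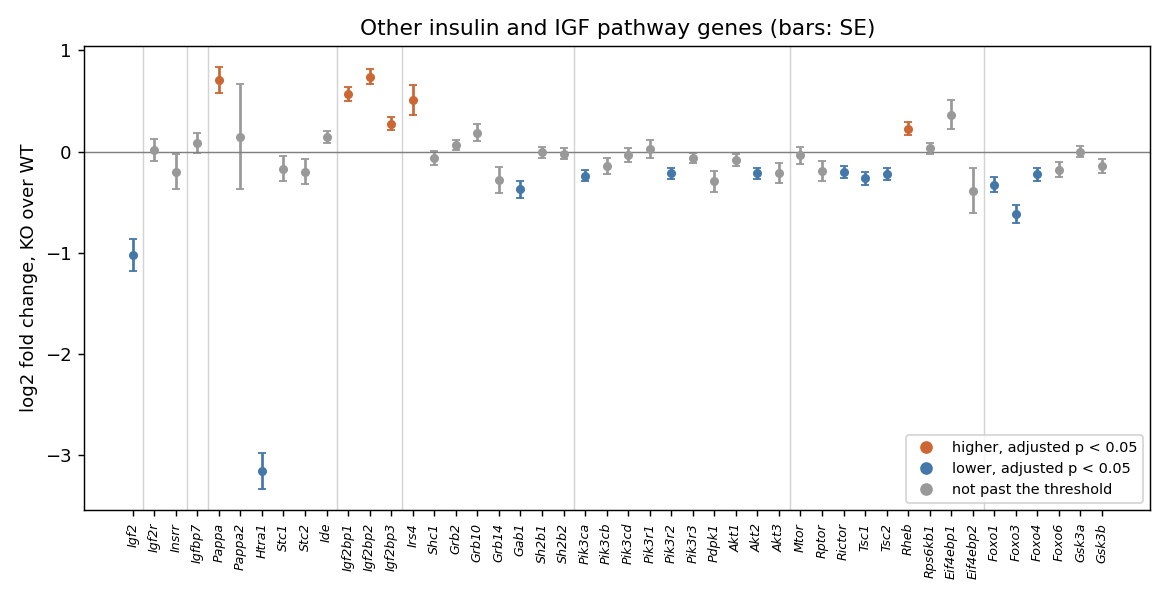
Log2 fold change of KO over WT with its SE (bars) for tested genes of the pathway outside the 10 (1 of the 47 is not shown), separated by role with grey lines; orange passed as higher, blue as lower and grey did not pass. Htra1 at -3.16 and Igf2 at -1.02 are the largest falls, and Igf2bp2 at 0.74 and Pappa at 0.71 the largest rises that passed.

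Markers of cell types that can express these genes were measured in the same libraries. In bulk tissue, fewer cells of a type and less RNA per cell cannot be told apart. The radial glia list, for the progenitors of the ventricular zone, was higher in KO, as were Igfbp5 and Igfbp2. Its summed level was 1433 to 1503 CPM in WT and 2164 to 2616 CPM in KO. In it 6 of 7 genes rose (Nes, Vim, Sox9, Fabp7, Hes5 and Hes1) while Slc1a3 fell. Among the KO pools this list and Igfbp2 were lowest in KO 1, whereas Igfbp5 was lowest in KO 2. The diencephalon and septum list, which includes Lhx9, was at 298 to 368 CPM in WT and 437 to 474 CPM in KO, with 4 of 6 genes higher and 1 lower. The cortical excitatory list was at 20.2 to 41.6 CPM in WT and 50.4 to 82.0 CPM in KO, with 3 of 5 higher. The summed red blood cell and choroid plexus lists, given below, were also higher in KO. The part of any of these differences in those of Igfbp5 and Igfbp2 was not tested.

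Lists of vessel and immune cells were lower in KO, as were Igf1, Insr, Igfbp4 and Igf2. The summed young neuron and MGE identity lists, given below, were also lower in KO. The pericyte and mural cell list was at 127 to 129 CPM in WT and 75.8 to 109 CPM in KO, and 6 of 7 genes fell. The endothelial list was at 185 to 187 CPM in WT and 136 to 166 CPM in KO, with 2 of 7 lower (Cldn5 and Slco1c1). The microglia list was at 36.4 to 38.2 CPM in WT and 28.4 to 34.2 CPM in KO, with 2 of 7 lower (Csf1r and Cx3cr1). In each of these 3 lists KO 1 was the KO library nearest to WT. It was also nearest in the radial glia, diencephalon and septum, choroid plexus and red blood cell lists, which were higher in KO. It was not nearest in the cortical excitatory, young neuron and MGE identity lists. KO 1 was nearest as well for Igf2 and for 7 of the 10 genes, among them Igfbp2, which rose, and Igfbp3, which did not pass. For Igfbp4 KO 1 was farthest from the WT mean. The part of any of these lists in the falls of Igf1, Insr, Igfbp4 and Igf2 was not tested.

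The meninges and fibroblast list, for tissue that is rich in IGF pathway transcripts, did not separate the groups, with 18.2 to 18.7 CPM in WT and 17.9 to 18.8 CPM in KO and 0 of 4 tested genes past the threshold. Choroid plexus was nearly absent in both groups, as its defining gene Ttr was at most 0.235 CPM. Its summed list was at 11.4 to 13.9 CPM in WT and 27.8 to 35.0 CPM in KO, and Otx2, which ventral forebrain cells also express, made up nearly all of it. Red blood cell genes summed to 371 to 437 CPM in WT and 895 to 1464 CPM in KO, with 3 of 7 higher. Young neuron genes were at 3833 to 4057 CPM in WT and 3468 to 3655 CPM in KO, with 3 of 6 lower (Dcx, Snap25 and Syt4). Dcx went from 1078 to 792 CPM on average. Tubb3, the most abundant of the list, was at 1988 CPM in WT and 1976 CPM in KO. Tubb3, Stmn2 and Gap43 did not pass. The MGE identity list was at 4218 to 4488 CPM in WT and 3654 to 4118 CPM in KO, with 3 of 8 lower and 1 higher.

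**Figure D5:**
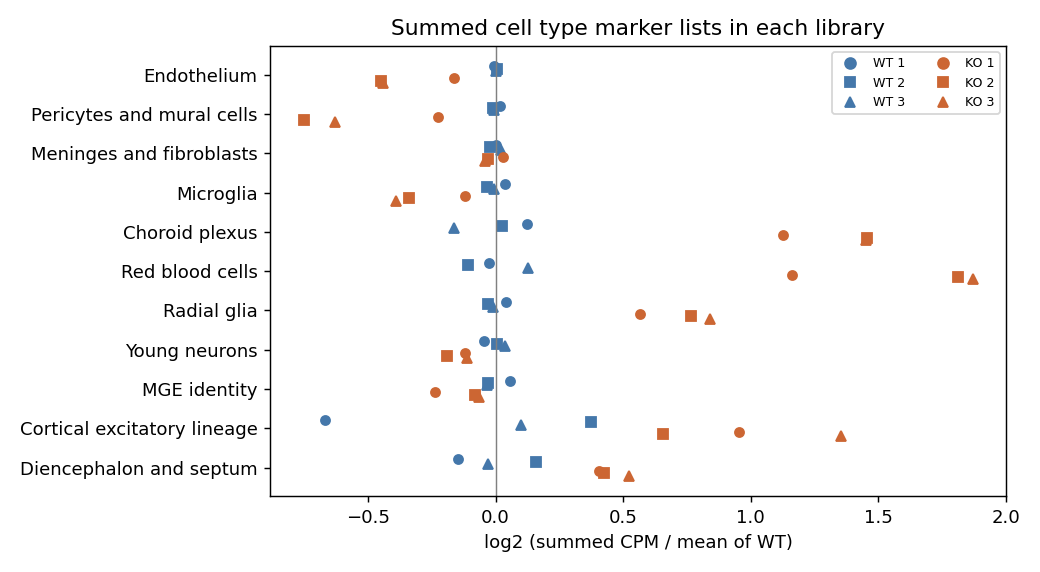
Summed CPM of each cell type marker list in each library, as log2 over the WT mean (x axis); blue is WT, orange is KO and the shape gives the replicate. Radial glia sums lie at 2164 to 2616 CPM in KO against 1433 to 1503 CPM in WT, pericyte sums at 75.8 to 109 CPM against 127 to 129 CPM, and meningeal sums overlap.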

How the data were processed

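The count table deposited by the authors holds whole reads for each Ensembl gene and was the input here. The tools named by the submitters' processing notes are STAR 2.5.2b, Trimmomatic 0.36, DESeq2, and featureCounts with Subread 1.5.2, and the build is GRCm38. The sources used here do not give the annotation release or the strand setting of the counting. Their normalized table was not used.

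The members and gene lists were chosen with earlier results of these data known. Symbols, positions and exonic lengths came from GENCODE M21, which held 49056 of 49315 gene IDs. After filterByExpr (at least 10 counts, total at least 15), WT and KO were compared in edgeR 4.0.16 (R 4.3.3) by its quasi-likelihood test, robust and TMM-scaled; p-values were adjusted over all tested genes by Benjamini-Hochberg and called under 0.05. CPM used the same scaling, and the SE is the log2 fold change over the square root of F. The fit was tested on simulated data. Limits for genes with no reads rest on 3 counts and cover counting error only.

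Named genes were the 10 members, up to 4 other pathway genes per role that passed, Igf2, Igf2r and the other binding proteins; genes alike in pattern had a mean of at least 10 CPM. Alternatives were other scalings and filters, DESeq2 1.42.0, limma 3.58.1 voom, no robust option, a replicate block, each library left out, and other thresholds and lengths. The labels describe the libraries as separate pools and do not state that equal numbers share a litter or day. The values of 1 pathway gene, which is included in the counts, are not reported here.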

Additional observations from a re-analysis of the deposited data

How the results depend on the processing

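Each of the 10 genes was refitted under 15 alternatives. All of them reuse the libraries whose values were known when the genes were chosen. The refits therefore describe the calls and do not support them. In 132 of these 150 refits a gene's call and direction stayed as reported, 11 refits lost a call, 7 gained one and 0 reversed. Igfbp5, Igf1, Insr and Igfbp4 passed in all 15 alternatives. For the other named pathway genes 248 of 315 refits kept both, 65 lost the call and 2 reversed, both for Igf2r, which did not pass in the main comparison: its log2 fold change was -0.00107 without WT 3 and -0.14 without KO 1, and up to 0.11 without KO 3. With any 1 library removed, between 464 and 3752 of all genes passed as higher and between 727 and 3804 as lower, with 1 to 3 of the 10 genes higher and 3 to 6 lower, and 3 to 6 other pathway genes higher and 3 to 22 lower; the most lower pathway calls, 22, came without KO 1. With the replicate block 862 genes were higher and 1219 lower in all, and among the members Igf1r lost its call and Irs1 gained one. Same-numbered pools had correlations of their deviations of -0.08, -0.12 and 0.03. With so few pools, these correlations cannot show whether the numbers pair the pools. A threshold of 0.01 gave 360 higher and 583 lower genes and 1 member higher, while 0.1 let 2732 genes pass as higher. The share of Igfbp5 was 14.3% in WT and 35.4% in KO from counts without length, and in KO 18.2% by longest transcript and 19.6% with all binding protein genes. That of Igfbp2 in the same settings was 12.3%, 26.6% and 20.2% in WT and, for the first 2 settings, 12.1% and 28.5% in KO. That of Igfbpl1 was 49.6%, 48.8% and 46.3% in WT and 39.4%, 42.5% and 40.4% in KO. By longest transcript 7 of 10 members kept their place in the order of WT levels. Igf1, at 18 to 70 counts per library, has the least depth of the members. The p-values set each group difference against the spread between the 3 pools of each group, estimated with information shared across genes.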
